A study of Homo sapiens with 9 samples.

Results

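The genes described here are 10 that clear peroxide or keep proteins reduced without being glutathione peroxidases: the peroxiredoxins PRDX1, PRDX2, PRDX3, PRDX4, PRDX5 and PRDX6, the thioredoxins TXN and TXN2, sulfiredoxin (SRXN1) and the thioredoxin-interacting protein TXNIP. They were taken by gene name from a table of 58735 genes, and all 10 were among the 17023 that passed the filter on low counts. OVCAR3, an established human ovarian cancer cell line, carried either a scramble short hairpin RNA (genotype WT in the labels) or 1 of 2 hairpins against GPX3 (genotype GPX3 knock-down), number 76 or number 78, called sh76 and sh78 here. Messenger RNA was sequenced after 72 h in culture in 3 replicates of each of the 3 groups. GPX3 encodes a secreted glutathione peroxidase, and the design asks about its role in ovarian cancer cells. The labels do not say whether replicates were separate transductions or cultures, so p-values measure only the spread between these samples, which may be technical.

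Peroxiredoxins are abundant enzymes that reduce hydrogen peroxide with a reactive cysteine. In most of them the oxidised cysteine forms a disulfide that thioredoxin reduces, and thioredoxin reductase then restores thioredoxin with electrons from NADPH. PRDX6 has a single catalytic cysteine and relies on glutathione instead. Sulfiredoxin repairs peroxiredoxins whose cysteine has been oxidised too far. TXNIP is an arrestin-fold protein that binds thioredoxin and restrains glucose uptake.

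The promoters of 3 members are printed because the results turn on these genes: PRDX5 and PRDX2 were each called in a comparison, and TXNIP varied most between libraries. Each window runs from 250 bases before to 50 bases after a RefSeq transcript start on GRCh38.p14, 5′ to 3′ on the strand of the gene, with capitals for matches to any of 4 motifs searched on both strands.
PRDX5, chr11:64317871-64318170, plus strand: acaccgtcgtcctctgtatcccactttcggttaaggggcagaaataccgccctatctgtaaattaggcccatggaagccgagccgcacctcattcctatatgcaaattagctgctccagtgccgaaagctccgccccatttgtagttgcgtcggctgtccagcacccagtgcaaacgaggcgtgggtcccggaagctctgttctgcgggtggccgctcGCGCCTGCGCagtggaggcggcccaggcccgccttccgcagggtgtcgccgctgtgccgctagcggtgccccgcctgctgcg
PRDX2, chr19:12801751-12802050, minus strand: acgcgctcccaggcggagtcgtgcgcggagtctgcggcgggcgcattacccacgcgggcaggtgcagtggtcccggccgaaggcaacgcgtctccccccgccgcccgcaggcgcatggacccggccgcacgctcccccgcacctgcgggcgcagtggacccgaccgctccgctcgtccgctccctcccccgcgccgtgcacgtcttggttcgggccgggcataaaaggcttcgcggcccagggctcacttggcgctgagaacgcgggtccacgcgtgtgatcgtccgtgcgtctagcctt
TXNIP, chr1:145996530-145996829, minus strand: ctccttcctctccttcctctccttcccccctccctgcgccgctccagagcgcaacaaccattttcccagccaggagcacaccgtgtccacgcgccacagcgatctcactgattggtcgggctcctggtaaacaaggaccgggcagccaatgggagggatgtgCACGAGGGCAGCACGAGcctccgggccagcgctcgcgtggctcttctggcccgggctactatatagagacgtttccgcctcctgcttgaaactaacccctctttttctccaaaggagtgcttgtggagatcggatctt
RefSeq windows were found for 7 of the 10 members, 9 windows in all, since PRDX5 and TXNIP have another start that is not printed. The capitals of TXNIP, CACGAGGGCAGCACGAG, match the carbohydrate response element (CACGNG and CNCGNG joined by NNNNN), which the glucose-sensing factors MondoA and MLX bind. That motif was in 0.501% of 35116 windows of this length. The capitals of PRDX5, GCGCCTGCGC, match the site of the respiratory gene factor NRF1 (GCGC and GCGC joined by NT), present in 5.78% of windows. The E-box CACGTG, which can overlap the carbohydrate response element, was in the windows of PRDX3 and PRDX4 and in 7.26% of all. The antioxidant response element core TGACNNNGC was in 0 of the 9 member windows and in 13.3% of all. The PRDX2 window matched 0 of the 4 motifs. A match is only a run of letters, not a measured binding site.

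Levels of different genes were compared as FPKM, fragments scaled to gene length and library size. PRDX5, found in mitochondria, peroxisomes and cytosol, had the highest level, 266 ± 21.4 FPKM (SD over 9 libraries), and its scramble mean ranked 91 of 58735 genes. The cytosolic PRDX1 had 196 ± 19.7 FPKM, the cytosolic thioredoxin TXN 138 ± 13.7 FPKM and PRDX6 119 ± 4.43 FPKM. The mitochondrial PRDX3 had 44.4 ± 3.08 FPKM and PRDX4, which works in the secretory pathway, 26.2 ± 1.95 FPKM. At each of these steps the higher gene was above the next in 9 of 9 libraries. The mitochondrial thioredoxin TXN2 (19.7 ± 1.76 FPKM) and the cytosolic PRDX2 (19.6 ± 2.58 FPKM) had no single order over all libraries. TXN2 was the higher in 3 of 9 libraries, those with sh76, and PRDX2 was the higher in every scramble and sh78 library. PRDX2 was above TXNIP (15.9 ± 3.57 FPKM) in 7 of 9. SRXN1 was lowest, at 1.94 ± 0.254 FPKM, from 77 to 106 counts per library.

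**Figure D1:**
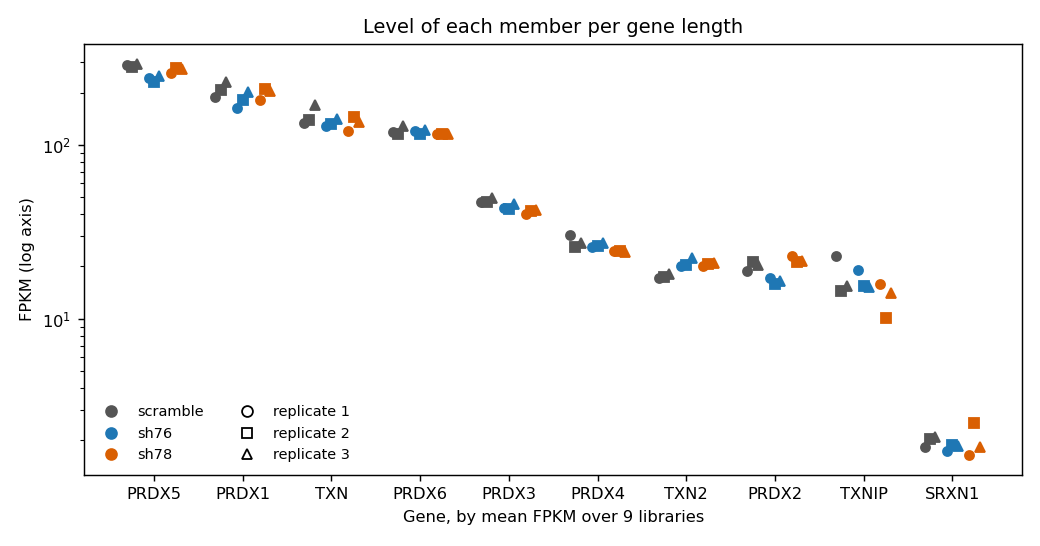
FPKM on a log axis for the 10 genes in 9 libraries, ordered by mean level, with colours for groups. Mean levels run from 266 FPKM for PRDX5 to 1.94 FPKM for SRXN1, and points of TXN2, PRDX2 and TXNIP lie at overlapping heights.

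Some members share bases with other genes. SRXN1 shares 85.0% of its exon bases with AL121758.1 on the same strand, which had 0 to 5 counts per library; how reads in shared bases were counted is not given in the sources used here, so the SRXN1 level is uncertain. PRDX1 shares 24.9% with MMACHC and PRDX2 14.1% with AC018761.2, both on the opposite strand, and these libraries do not keep the strand. The same limit therefore holds for the levels of PRDX1 and PRDX2 and for their places in the order of levels above. MMACHC had log2 fold changes of 0.19 with sh76 and 0.14 with sh78 (edgeR adjusted p 0.44 and 0.615), and AC018761.2 was listed with 0 counts in all 9 libraries. The other 7 members overlap no annotated gene.

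Libraries held 14652965 to 21327562 counts. GPX3 stood at 173, 109 and 117 CPM under scramble, 56.8, 55.2 and 55.5 CPM under sh76 and 35.3, 28.4 and 28.3 CPM under sh78; CPM is the count scaled to library size and composition, the scale used for 1 gene between libraries. Every knock-down library was below every scramble library. GPX3 fell by 1.25 on the log2 scale with sh76 (edgeR adjusted p 0.00264) and by 2.12 with sh78 (edgeR adjusted p 0.000125). The ovarian carcinoma markers PAX8, MUC16, EPCAM, KRT8, KRT18 and WT1 were each at 58.4 CPM or more in all 9 libraries. The summed level of the 6 differed between the groups without overlap, at 10224 to 10973 CPM under scramble, 9027 to 9648 CPM under sh76 and 8162 to 8565 CPM under sh78. Under scramble, KRT8 and KRT18 were the largest parts of this sum, with means of 5562 and 2177 CPM. With sh78 these means were 3878 and 1579 CPM. Means of EPCAM and WT1 were also below scramble with sh78, and those of PAX8 and MUC16 were above it. PAX8 fell by 0.28 on the log2 scale with sh76 (edgeR adjusted p 0.0196) and was higher with sh78 than with sh76 by 0.37 (edgeR adjusted p 0.00386). EPCAM, KRT8 and KRT18 fell by 0.33, 0.52 and 0.46 with sh78 (edgeR adjusted p 0.00387, 0.00259 and 0.0105). With the replicate block described below, edgeR called 4 of the 6 lower and 1 higher with sh76, 3 lower with sh78, and 3 lower and 1 higher with sh78 than with sh76. PTPRC, PECAM1 and DCN, markers of leukocytes, endothelium and fibroblasts, were at 1.29 CPM or less, while the fibroblast collagen genes COL1A2 and COL1A1 had 1.09 to 6.88 and 25.5 to 44.5 CPM. The summed level of these 5 was 27.9 to 39.3, 31.8 to 53.1 and 35.8 to 48.0 CPM in the same order of groups, and COL1A1 was called higher than scramble with both hairpins in the blocked edgeR fit alone (edgeR adjusted p 0.0137 and 0.00496). The part of these marker differences in the results below was not tested.

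The fitted log2 fold changes of the 10 genes from scramble were at most 0.29 in size with sh76 and 0.40 with sh78. Some of the intervals given below reach further, so larger differences are not excluded for those genes. Examples are TXNIP with sh78 (−0.89 to 0.082) and SRXN1 with sh76 (−0.51 to 0.27). In bulk RNA, fewer cells of a type and less RNA per cell cannot be told apart. With sh76, PRDX5 was lower and was the 1 member called at an edgeR adjusted p under 0.05, where 3.58% of all genes tested were called (1.43% higher and 2.16% lower). With sh78, edgeR called 0 of 10 members against 4.41% of all genes (1.85% higher and 2.56% lower); 3 members had an unadjusted p under 0.05, and DESeq2 called 1, PRDX3. Between the hairpins PRDX2 was the 1 member called, higher with sh78, beside 3.7% of all genes (1.97% higher and 1.72% lower). With 10 members, counts of 0 and 1 are near these background shares. Fitted levels ran from 81.7% (PRDX2) to 119.5% (TXN2) of scramble with sh76, and from 75.7% (TXNIP) to 118% (TXN2) with sh78. The median log2 fold change of the members was −0.12 with sh76 and −0.076 with sh78, beside 0.0064 and 0.0063 over all genes tested; both comparisons use the same scramble libraries.

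Replicates with the same number deviated together, so each comparison was also fitted with the replicate number as a block. For sh76 the blocked edgeR fit called 4 members, PRDX1, PRDX2 and PRDX5 lower and TXN2 higher, and 20.4% of all genes (9.63% higher, 10.7% lower). For sh78 it called 4, PRDX3, PRDX4 and TXNIP lower and TXN2 higher, and 19.9% of all genes (9.79% higher, 10.1% lower). Between the hairpins it called PRDX1, PRDX2 and PRDX5 as higher and TXNIP as lower with sh78, and 18.3% of all genes (9.69% higher, 8.62% lower). Libraries did not overlap for 4 members with sh76, 5 with sh78 and 4 between the hairpins, where 22.5%, 21.5% and 21.8% of all genes did not.

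**Figure D2:**
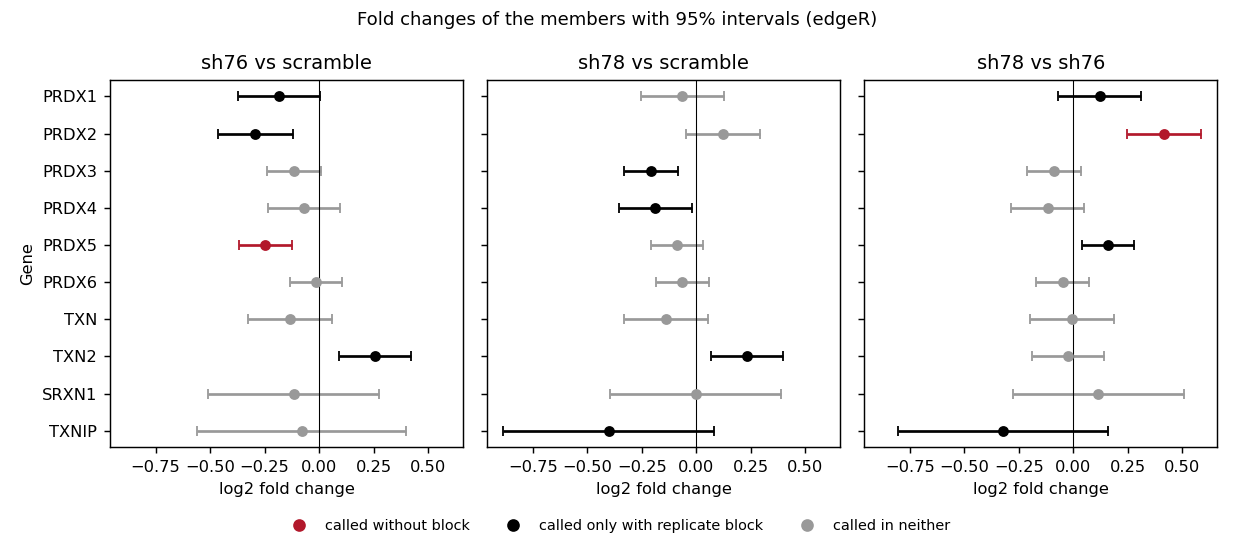
Log2 fold change of each gene with its 95% interval from edgeR, in 3 panels: sh76 against scramble, sh78 against scramble, and sh78 against sh76. Red points passed an adjusted p of 0.05 without the block, black points only with the replicate block and grey points in neither; the red points are PRDX5 with sh76 (−0.25) and PRDX2 between the hairpins (0.42).

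PRDX5 (ENSG00000126432, hg38 chromosome 11, 64318088 to 64321811, plus strand) reduces peroxides and peroxynitrite. It stood at 258, 252 and 262 CPM under scramble, 218, 209 and 225 CPM under sh76 and 235, 248 and 244 CPM under sh78. Every sh76 library was below every scramble library, and the sh78 libraries lay between these groups without overlap. PRDX5 fell by 0.25 on the log2 scale with sh76 (SE 0.0557, edgeR adjusted p 0.0249), to 84.3% of scramble. Its log2 fold change with sh78 was −0.088 (95% interval −0.21 to 0.032, edgeR adjusted p 0.47). The hairpins differed by 0.16 (95% interval 0.039 to 0.28), which missed the threshold without the block (edgeR adjusted p 0.151) and passed it with the block (edgeR adjusted p 0.00589). The sh76 call was lost when any 1 of the scramble libraries, or sh76 replicate 1 or 2, was left out (edgeR adjusted p 0.0526 to 0.136), while the log2 fold change ranged from −0.27 to −0.22 over the 17 alternatives.

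PRDX2 (ENSG00000167815, hg38 chromosome 19, 12796820 to 12801859, minus strand), a cytosolic peroxiredoxin also known from red blood cells, differed between the hairpins. It stood at 40.0, 44.8 and 42.8 CPM under scramble, 36.3, 33.4 and 34.6 CPM under sh76 and 48.8, 44.8 and 45.3 CPM under sh78. All sh76 libraries were below all others, and the lowest sh78 library was just above the highest scramble library. With sh78 it was higher than with sh76 by 0.42 on the log2 scale (SE 0.0801, edgeR adjusted p 0.00985), or 133% of the sh76 level. The same-numbered pairs gave 0.43, 0.42 and 0.39. Leaving out sh76 replicate 2 or sh78 replicate 1 ended this call (edgeR adjusted p 0.0619 and 0.051). Against scramble, its log2 fold change was −0.29 with sh76 (95% interval −0.46 to −0.12, edgeR adjusted p 0.0604) and 0.12 with sh78 (95% interval −0.048 to 0.29, edgeR adjusted p 0.482). The sh76 value passed with the block (edgeR adjusted p 0.000871), in DESeq2 (adjusted p 0.0316) and in limma on log2(FPKM + 1) (adjusted p 0.0448).

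PRDX1 (ENSG00000117450, hg38 chromosome 1, 45511036 to 45523047, minus strand) is a main cytosolic peroxiredoxin and a known target of the stress factor NRF2. It stood at 288, 315 and 349.7 CPM under scramble, 251, 278 and 309.7 CPM under sh76 and 279, 322 and 311 CPM under sh78. The groups overlapped, but each sh76 library was below the scramble library of its own number, by log2 differences of −0.20, −0.18 and −0.18. The fitted log2 fold change with sh76 was −0.18 (95% interval −0.37 to 0.006, edgeR adjusted p 0.302), called with the block (edgeR adjusted p 0.00131). With sh78 it was −0.064 (95% interval −0.25 to 0.13, edgeR adjusted p 0.787). Between the hairpins it was 0.12 (edgeR adjusted p 0.575), called with the block (edgeR adjusted p 0.0394). Single libraries moved these values without the block: the sh76 value was −0.11 without scramble replicate 3 and −0.12 without sh76 replicate 1, and the hairpin difference was 0.052 without sh76 replicate 1, 0.20 without sh76 replicate 3 and 0.077 without sh78 replicate 2.

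The mitochondrial pair lay on opposite sides of scramble. PRDX3 (ENSG00000165672, hg38 chromosome 10, 119167703 to 119178833, minus strand), the peroxiredoxin of the matrix, stood at 161, 162 and 169.5 CPM under scramble, 149.7, 147 and 158 CPM under sh76 and 139, 142 and 146 CPM under sh78. The groups did not overlap, with scramble highest and sh78 lowest. Its log2 fold change was −0.12 with sh76 (95% interval −0.24 to 0.0086, edgeR adjusted p 0.325) and −0.21 with sh78 (95% interval −0.33 to −0.082, edgeR adjusted p 0.0623). The sh78 value passed in DESeq2 (adjusted p 0.0394) and with the block (edgeR adjusted p 0.000448).

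TXN2 (ENSG00000100348, hg38 chromosome 22, 36467036 to 36482030, minus strand), the mitochondrial thioredoxin that reduces PRDX3, stood at 35.4, 36.0 and 37.1 CPM under scramble, 41.6, 42.0 and 46.0 CPM under sh76 and 41.4, 42.9 and 43.4 CPM under sh78. It was the 1 member above every scramble library in all 6 knock-down libraries, and the hairpin groups overlapped each other. TXN2 had a log2 fold change of 0.26 with sh76 (95% interval 0.092 to 0.42, edgeR adjusted p 0.0853) and 0.23 with sh78 (95% interval 0.068 to 0.40, edgeR adjusted p 0.117). Of the alternatives run, the replicate block alone called them (edgeR adjusted p 0.00228 and 0.00633). The hairpins differed by −0.024 (95% interval −0.19 to 0.14).

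**Figure D3:**
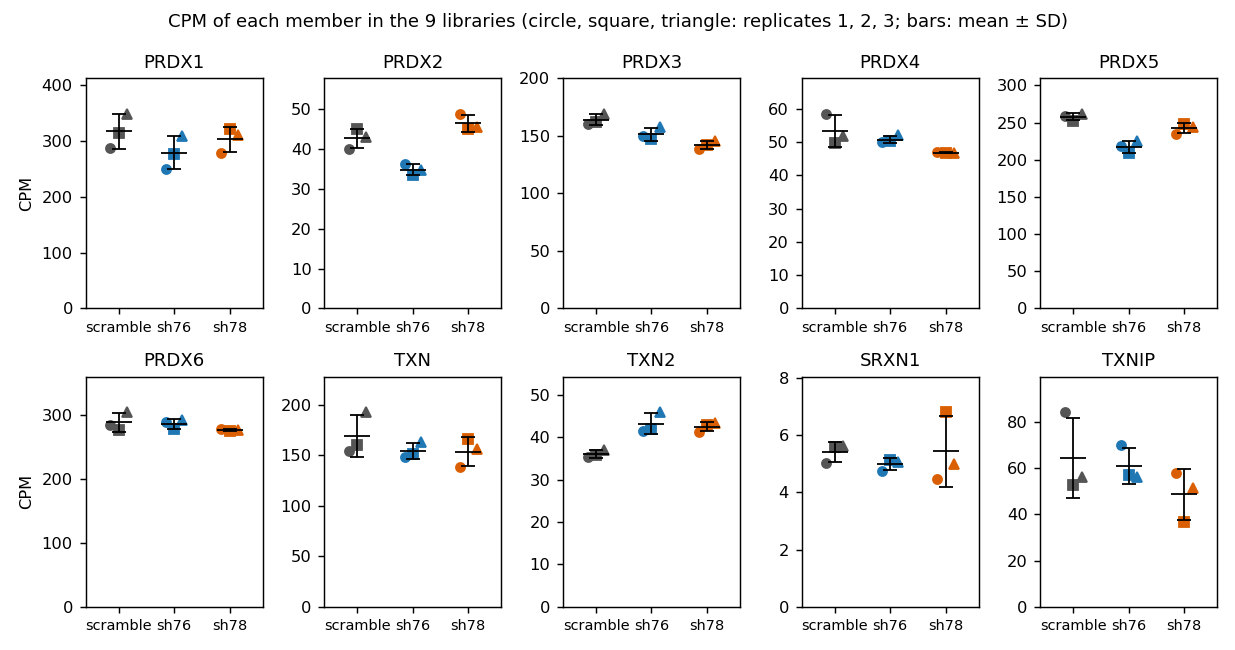
CPM of the 10 genes in the 9 libraries, 1 panel per gene, with the mean ± SD of each group. TXN2 is above scramble in all 6 knock-down libraries, PRDX5 and PRDX2 are lowest with sh76, PRDX3 and PRDX4 are lowest with sh78, and TXNIP is highest in replicate 1 of each group.

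PRDX4 (ENSG00000123131, hg38 chromosome X, 23664262 to 23686399, plus strand) acts in the endoplasmic reticulum, where it helps oxidise folding proteins. It stood at 58.6, 49.6 and 51.8 CPM under scramble, 49.9, 50.3 and 52.0 CPM under sh76 and 46.9, 46.8 and 46.6 CPM under sh78. The sh78 libraries were close together and below all others, and scramble replicate 1 was the highest. Its log2 fold change with sh78 was −0.19 (95% interval −0.36 to −0.021, edgeR adjusted p 0.22), called with the block (edgeR adjusted p 0.0248), and −0.12 without scramble replicate 1. With sh76 it was −0.071 (95% interval −0.24 to 0.095).

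PRDX6 (ENSG00000117592, hg38 chromosome 1, 173477266 to 173488807, plus strand), which also has phospholipase activity, varied least. It stood at 283, 276 and 304 CPM under scramble, 288, 277 and 291 CPM under sh76 and 277, 274 and 276 CPM under sh78, and the groups overlapped. The log2 fold change of PRDX6 was −0.014 with sh76 (95% interval −0.13 to 0.11) and −0.064 with sh78 (95% interval −0.18 to 0.057).

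Summed over the 6 peroxiredoxins, the level per gene length was 689.2, 695.8 and 748.9 FPKM in scramble replicates 1, 2 and 3, 611.5, 611.5 and 663.4 FPKM with sh76 and 646.1, 688.8 and 678.6 FPKM with sh78. All 6 knock-down sums were below the 3 scramble sums, but sh78 replicate 2 (688.8 FPKM) was barely below scramble replicate 1 (689.2 FPKM). Summed over all members, sh78 replicate 2 (866.9 FPKM) was above scramble replicate 1 (865.1 FPKM). PRDX5 and PRDX1 were the largest parts of the peroxiredoxin sum, with means of 287 and 207.6 FPKM under scramble. With sh78 the PRDX2 mean was above scramble (21.98 against 20.22 FPKM), and those of the other peroxiredoxins were below it. Differences in these sums were not tested.

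TXN (ENSG00000136810, hg38 chromosome 9, 110243811 to 110256640, minus strand) reduces disulfides in the cytosol and nucleus. It stood at 154, 160.5 and 193 CPM under scramble, 148, 152 and 163 CPM under sh76 and 138, 166 and 156 CPM under sh78. The groups overlapped, and scramble replicate 3 was the highest library. Against scramble TXN had a log2 fold change of −0.13 with sh76 (95% interval −0.33 to 0.057, edgeR adjusted p 0.48) and −0.14 with sh78 (95% interval −0.33 to 0.052, edgeR adjusted p 0.474). Without scramble replicate 3 these were −0.029 and −0.035.

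SRXN1 (ENSG00000271303, hg38 chromosome 20, 646615 to 653370, minus strand), a known NRF2 target, stood at 5.01, 5.57 and 5.63 CPM under scramble, 4.75, 5.14 and 5.06 CPM under sh76 and 4.47, 6.81 and 5.002 CPM under sh78. The groups overlapped, and sh78 held both the lowest and the highest library. SRXN1 had a log2 fold change of −0.12 with sh76 (95% interval −0.51 to 0.27) and −0.0024 with sh78 (95% interval −0.40 to 0.39). A difference inside these intervals was not detectable at this depth.

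TXNIP (ENSG00000265972, hg38 chromosome 1, 145992435 to 145996600, minus strand) varied most: the root mean square deviation from its own mean over 9 libraries was 0.307 on the log2 CPM scale, against 0.0469 for PRDX6. It stood at 84.2, 52.8 and 56.3 CPM under scramble, 70.0, 56.9 and 55.9 CPM under sh76 and 57.9, 36.6 and 51.2 CPM under sh78. Replicate 1 was the highest library of each group, and the groups overlapped. Its log2 fold change with sh78 was −0.40 (95% interval −0.89 to 0.082, edgeR adjusted p 0.388). The same-numbered pairs gave −0.54, −0.53 and −0.14, and the block called the difference (edgeR adjusted p 0.00435). It was −0.16 without scramble replicate 1 and −0.24 without sh78 replicate 2. With sh76 it was −0.080 (95% interval −0.56 to 0.40), and 0.16 without scramble replicate 1. Between the hairpins it was −0.32 (95% interval −0.81 to 0.16, edgeR adjusted p 0.533), called with the block (edgeR adjusted p 0.0133); this difference was −0.21 without sh76 replicate 1 and −0.16 without sh78 replicate 2.

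MondoA (gene MLXIP) and its partner MLX are known to switch on TXNIP and its arrestin relative ARRDC4, through elements like the capitals of the TXNIP window. ARRDC4 stood at 12.3, 5.75 and 8.21 CPM under scramble, 12.6, 8.87 and 12.2 CPM under sh76 and 6.73, 5.37 and 6.56 CPM under sh78. As for TXNIP, replicate 1 was the highest library of each group, which also held for GPX3, SLC7A11, MLXIP and MLX. For ARRDC2, ARRDC3 and MLXIPL, listed with ARRDC4 as arrestin relatives of TXNIP and MondoA factors, replicate 1 was the lowest library of each group. ARRDC1, of the same list, had neither order in all groups. All sh78 libraries of ARRDC4 were below all its sh76 libraries. Between the hairpins its log2 fold change was −0.84 (95% interval −1.36 to −0.33, edgeR adjusted p 0.0745), called with the block (edgeR adjusted p 7.38e-06) and by DESeq2 (adjusted p 0.0156). Against scramble it was 0.36 with sh76 (edgeR adjusted p 0.463) and −0.48 with sh78 (edgeR adjusted p 0.338); the block called both (edgeR adjusted p 0.0297 and 0.0158). Without the block, the sh76 value was 0.68 without scramble replicate 1 and 0.13 without scramble replicate 2, and the sh78 value was −0.16 without scramble replicate 1. MLXIP had log2 fold changes of −0.048 with sh76 and 0.0001 with sh78, and MLX had −0.070 and −0.023, with no call in either fit.

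TXNRD1, the cytosolic thioredoxin reductase and a selenoprotein, stood at 401, 443 and 486 CPM under scramble, 369, 372 and 422 CPM under sh76 and 279.8, 311 and 322 CPM under sh78. The sh78 libraries were below all others. TXNRD1 fell by 0.54 on the log2 scale with sh78 (SE 0.081, edgeR adjusted p 0.00162), to 68.7% of scramble, and was called in all 17 alternatives. Under sh76 the change was −0.19 (edgeR adjusted p 0.229), called with the block (edgeR adjusted p 0.000571); it was −0.12 without scramble replicate 3. The hairpins differed by −0.35 (edgeR adjusted p 0.0281), a call lost without sh76 replicate 2 or 3 or sh78 replicate 1 or 2 (edgeR adjusted p 0.0696 to 0.114) and in limma on log2(FPKM + 1) (adjusted p 0.0762). TXNRD2, the mitochondrial reductase, had log2 fold changes of −0.14 and −0.11, and TXNRD3 had 0.14 and 0.036, with no call in either fit.

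**Figure D4:**
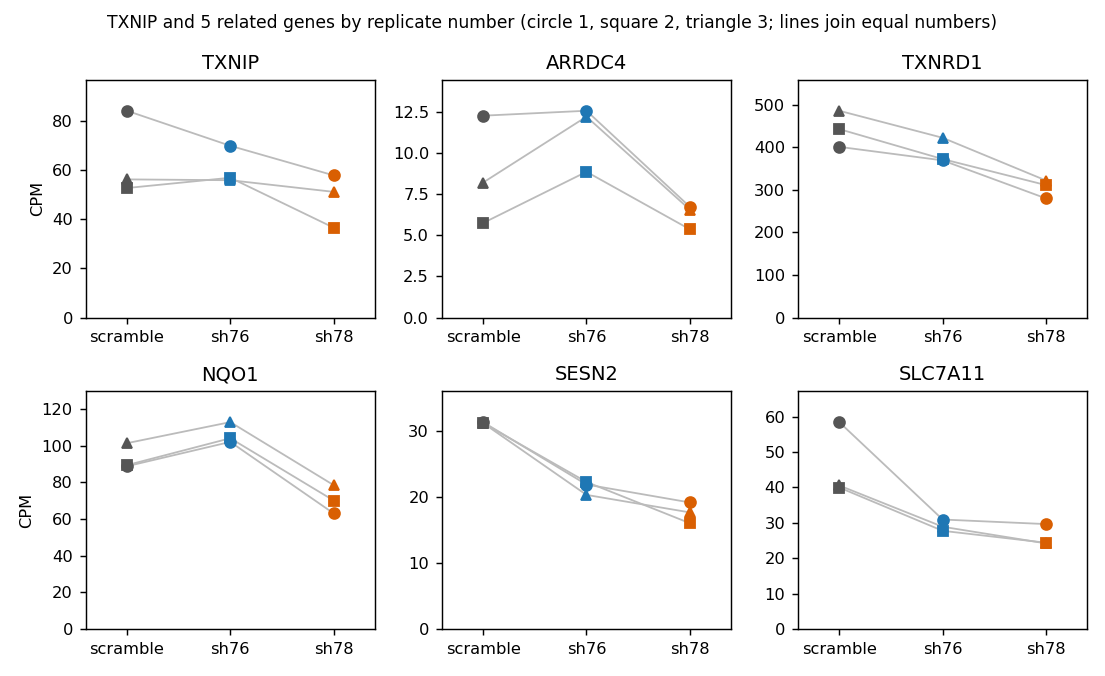
CPM of TXNIP and 5 related genes by group, with lines that join libraries of the same replicate number. TXNRD1 and SESN2 are lowest with sh78 for each of the 3 numbers, ARRDC4 and NQO1 are highest with sh76 for each, and SLC7A11 is below scramble with both hairpins.

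The thioredoxin reductases belong to a list of 48 related genes, of which 47 passed the count filter (MSRA did not). Of these, edgeR called 2 lower with sh76, 4 lower with sh78 and 2 lower with sh78 than with sh76, and 0 higher in each, beside 2.16%, 2.56% and 1.72% of all genes called lower. Their median log2 fold changes were −0.013, −0.035 and −0.031. With the block, 15, 12 and 11 were called in either direction (6, 4 and 4 of them higher), beside 20.4%, 19.9% and 18.3% of all genes. Of the 7 lists, 4 had no call by edgeR without the block in any of the 3 comparisons, and 1 of these, the glutaredoxins, had none with it. Of the thioredoxin reductases, the block called TXNRD1 alone, as lower, in each comparison. Among 15 thioredoxin-domain relatives, 5, 2 and 1 had an unadjusted p under 0.05 and DESeq2 called 0, 0 and 0, in the order sh76, sh78 and between the hairpins; edgeR with the block called 5, 2 and 1. Among 4 glutaredoxins, which pass electrons from glutathione, all of these counts were 0. Among 7 thioredoxin-dependent enzymes and partners, such as methionine sulfoxide reductases and ribonucleotide reductase, an unadjusted p under 0.05 was found for 1, 3 and 2, DESeq2 called 0, 0 and 0 and the block called 1, 3 and 3. Among 7 arrestin relatives of TXNIP and MondoA factors, an unadjusted p under 0.05 was found for 0, 0 and 1, DESeq2 called 0, 0 and 1 and the block called 2, 1 and 2. In the list of 8 genes made of NRF2, its inhibitor and its targets, 1 fell with sh76 and 2 fell with sh78, and their median log2 fold changes were 0.017 and −0.16. With sh76, 4 of the 8 were above 0, and the block called 2 higher and 1 lower. With sh78, 1 was above 0, the inhibitor KEAP1 (0.018), and the block called 0 higher and 3 lower. The targets GCLM (−0.020) and GCLC (−0.027) lay near 0 with sh78. Between the hairpins 1 was above 0, 1 was called lower without the block, and the block called 0 higher and 3 lower. With 8 genes, 1 or 2 calls are few to set against the background shares above.

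SLC7A11, the cystine transporter that feeds glutathione synthesis, stood at 58.4, 40.0 and 40.5 CPM under scramble, 30.9, 27.7 and 28.9 CPM under sh76 and 29.6, 24.4 and 24.2 CPM under sh78. It fell by 0.67 with sh76 (edgeR adjusted p 0.0177) and by 0.83 with sh78 (edgeR adjusted p 0.00437). Leaving out sh76 replicate 2 or 3 ended the sh76 call (edgeR adjusted p 0.0675 to 0.0962), and limma on log2(FPKM + 1) did not make it (adjusted p 0.0587). NQO1, a quinone reductase, stood at 88.7, 89.3 and 101 CPM under scramble, 102, 104 and 113 CPM under sh76 and 63.0, 70.0 and 78.4 CPM under sh78. It fell by 0.40 with sh78 (edgeR adjusted p 0.0155), a call lost without scramble replicate 3 or sh78 replicate 1 or 2 (edgeR adjusted p 0.0595 to 0.0787). Under sh76 the value for NQO1 was 0.19 (edgeR adjusted p 0.261; 0.00358 with the block), and the hairpins differed by −0.59 (edgeR adjusted p 0.00169).

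SESN2, a leucine-binding stress protein and 1 of 3 sestrins listed, stood at 31.4, 31.2 and 31.2 CPM under scramble, 21.9, 22.3 and 20.3 CPM under sh76 and 19.2, 16.0 and 17.7 CPM under sh78. It fell by 0.54 with sh76 (edgeR adjusted p 0.00665) and by 0.82 with sh78 (edgeR adjusted p 0.000294), in all 17 alternatives for each hairpin. The hairpins differed by −0.28 (edgeR adjusted p 0.143), called with the block (edgeR adjusted p 0.016). SESN3 went the other way, by 0.30 with sh76 (edgeR adjusted p 0.0662) and 0.28 with sh78 (edgeR adjusted p 0.0894). The block called both (edgeR adjusted p 4.83e-05 and 0.00019), and DESeq2 the sh76 value (adjusted p 0.0382). SESN1 had −0.37 with sh76 (edgeR adjusted p 0.32, and 0.0498 with the block) and −0.11 with sh78. In the order sh76, sh78 and between the hairpins, the block called 3, 2 and 1 of the sestrins.

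The protein-coding genes whose pattern was most like that of a called member were ranked by the root mean square difference in centred log2 CPM over 9 libraries, among 11042 genes. For PRDX5, which itself deviated by 0.108, they were UBXN1 (0.0267), TMED9 (0.0357) and RTN3 (0.0364). For PRDX2, which deviated by 0.182, they were PER3 (0.0565), FAM171A1 (0.0584) and PPP3CA (0.0614).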

How the data were processed

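Messenger RNA was selected with poly-T beads and sequenced as non-directional libraries from 9 samples, per the labels' protocols. HISAT2 2.0.5, featureCounts 1.5.0-p3 and build hg38 are named in the submitters' processing notes; their settings and the annotation are not given in the sources used here. The authors deposited whole-number counts per gene and FPKM values. The FPKM equal those counts per gene length and a library size that was 98.1% to 103% of the total count. All 58735 identifiers matched GENCODE release 29.

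The deposited counts went into edgeR 4.0.16 (R 4.3.3): filterByExpr (minimum count 10, minimum total 15), TMM factors and robust quasi-likelihood F tests with 1 coefficient per group over all 9 samples, with Benjamini-Hochberg adjustment over 17023 genes. DESeq2 1.42.0, limma 3.58.1 on log2(FPKM + 1) and log2(FPKM + 0.1), other size factors, no filter, 2-group fits, the replicate block and fits without each library were alternatives. In simulated counts with 200 genes changed by 1 on the log2 scale, edgeR found 69.0% of them in the sh76 comparison (of 16719 genes) and 65.5% in the sh78 comparison (of 16741 genes). The largest log2 fold change of a member was 0.42 in size, and recovery of changes that small was not simulated.

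The labels number replicates 1 to 3 in each group. Deviations from group means correlated at 0.14 to 0.39 in the 9 same-numbered pairs and at −0.31 to 0.064 in the 18 others, so the numbers were taken to pair samples, and blocked values are printed where they change a call of a member or another gene whose value in that comparison is given; for the lists, blocked counts are given. Replicates of a group differed by a chi-square of 5.20 to 11.7 per degree of freedom, so none was treated as a duplicate. Members and lists were chosen with earlier results of these data known. The rule for named genes took all members, GPX3, TXNRD1, TXNRD2, TXNRD3, MLXIP, MLX, ARRDC4, other related genes called in a comparison and the 3 nearest patterns of each called member. ARRDC1, ARRDC2, ARRDC3, MLXIPL, SESN1, SESN3, KEAP1, GCLM and GCLC are named besides, from the same lists as genes that the rule took.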

Additional observations from a re-analysis of the deposited data

Results flagged for a closer look

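For 7 of the named genes, edgeR's test of sh78 against sh76 passed an adjusted p of 0.05, which flags a possible difference between the hairpins. PRDX2 was higher with sh78, by 0.42 on the log2 scale. Its libraries did not overlap between the hairpins, so all 3 same-numbered pairs had this direction. This call was lost without sh76 replicate 2 or sh78 replicate 1 (edgeR adjusted p 0.0619 and 0.051). TXNRD1 (−0.35), NQO1 (−0.59) and GPX3 itself (−0.86, edgeR adjusted p 0.0194) were lower with sh78. The GPX3 call was lost without sh76 replicate 1, 2 or 3 or sh78 replicate 2 or 3 (edgeR adjusted p 0.0574 to 0.0811). That of TXNRD1 was lost without sh76 replicate 2 or 3 or sh78 replicate 1 or 2 (edgeR adjusted p 0.0696 to 0.114). PER3 (0.38), FAM171A1 (0.40) and PPP3CA (0.36) were higher with sh78 than with sh76, but they were chosen for a pattern like that of PRDX2, so their calls are no separate evidence. Each call was lost in some fits without 1 library (edgeR adjusted p 0.0517 to 0.0612 for PER3, 0.0585 to 0.121 for FAM171A1 and 0.0542 for PPP3CA without sh76 replicate 2). Groups of 3 were not tested for single outlying libraries.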

How the results depend on the processing

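In the order sh76, sh78 and sh78 against sh76, edgeR called 610, 750 and 629 of all genes, 1, 0 and 1 members and 2, 4 and 2 related genes. With the replicate block, which the pairing of same-numbered samples bears on, these were 3467, 3388 and 3117, 4, 4 and 4, and 15, 12 and 11. Without the count filter they were 1149, 1212 and 1125 of all genes and 4, 5 and 4 related genes. DESeq2 called 2, 1 and 1 members. Limma called 2, 0 and 1 members and 1, 4 and 1 related genes on log2(FPKM + 1), and 2, 0 and 1 and 1, 4 and 1 on log2(FPKM + 0.1). Without replicate 1 in all groups, an alternative chosen after seeing the data, 2, 0 and 1 members were called. Leaving out 1 library at a time gave 231 to 646, 416 to 826 and 271 to 758 of all genes, 0 to 1, 0 to 0 and 0 to 1 members and 1 to 3, 3 to 5 and 1 to 3 related genes. Of 510 log2 fold changes of members under alternatives, 471 kept direction and side of the threshold, 7 lost a call, 15 gained one and 17 changed sign. Changes of sign touched uncalled values only. With 1 library left out, the log2 fold change with sh76 ranged from −0.13 to 0.0017 for PRDX4, −0.048 to 0.028 for PRDX6, −0.21 to 0.16 for TXNIP, −0.12 to 0.063 for MLXIP, −0.14 to 0.060 for MLX. With 1 library left out, the log2 fold change with sh78 ranged from −0.13 to 0.011 for PRDX1, −0.19 to 0.12 for SRXN1, −0.032 to 0.13 for TXNRD3, −0.077 to 0.11 for MLXIP, −0.14 to 0.11 for MLX. With 1 library left out, the log2 fold change between the hairpins ranged from −0.066 to 0.066 for TXN, −0.046 to 0.025 for TXN2, −0.077 to 0.24 for SRXN1, −0.22 to 0.032 for TXNRD3, −0.063 to 0.12 for MLX. Without replicate 1 in all groups it was 0.0087 for PRDX4 with sh76, 0.045 for TXNIP with sh76, 0.0061 for MLXIP with sh76, 0.068 for SRXN1 with sh78, −0.085 for TXNRD3 with sh78, 0.034 for TXN between the hairpins. The cause of these changes was not tested. Fits that leave out libraries also hold fewer samples. For SRXN1, low counts limit the precision.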
